A study of Mus musculus with 2 samples.

Results

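Low-hemoglobin erythroid cells are the bone marrow cells that carry transcripts of the red cell lineage before hemoglobin makes up most of their RNA. They were chosen among droplet barcodes with at least 200 genes and at most 10% mitochondrial unique molecular identifiers (UMIs, each standing for 1 captured transcript). A cell was a member if Klf1, Car1, Ermap and Rhd together gave 3 or more UMIs while the 4 adult hemoglobin genes Hba-a1, Hba-a2, Hbb-bs and Hbb-bt made up under 20% of its UMIs. Cells with 2% or more of their UMIs from the neutrophil genes S100a8 and S100a9, or with over 1 UMI of the B cell pair Cd79a and Cd79b or of the T cell genes Cd3e, Cd3d and Cd3g, were left out. The rule found 553 cells among 12259 kept barcodes.

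The marrow came from C57BL/6 mice aged 6 months that were all Apoe(-/-), lacking the apolipoprotein whose loss raises plasma cholesterol, and were labelled with atherosclerosis. The mice of the null-labelled library were also Itgb3(-/-), lacking integrin β3, and those of the control-labelled library were Itgb3(+/+). Each genotype was 1 droplet-based 3′ single-cell library, and the number of animals in a library is not given in the labels or files used. With 1 library per genotype there is no test between genotypes: every interval is a 95% interval for counting error only, and genotype cannot be told apart from animal or library. The rule found 94 of 2974 kept barcodes in the null-labelled library (3.16%, exact binomial interval 2.56% to 3.85%) and 459 of 9285 in the control-labelled library (4.94%, 4.51% to 5.40%). The share was lower in the null-labelled library under each of the 11 settings tried, although its size moved with the depth of the cells compared.

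Red cells arise from stem cells through burst-forming and colony-forming erythroid progenitors, which depend first on stem cell factor and its receptor Kit and then on erythropoietin and its receptor Epor. The transcription factors Gata1, Tal1 and Klf1 then switch on the genes for heme synthesis, globins and the red cell membrane, while the cells go through a few last divisions and shut down ribosome production. Klf1 itself is the erythroid Krüppel-like factor, Car1 is a carbonic anhydrase typical of early erythroid cells, Ermap is an erythroid membrane protein and Rhd encodes the Rh blood group protein.

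All 4 chosen markers were detected together in 66 of the 94 null-labelled and 382 of the 459 control-labelled cells. The median member had 20807.5 UMIs and 3382 genes in the null-labelled library, and 16339 UMIs and 3384 genes in the control-labelled library. Over all kept barcodes the median was 9363.5 and 4999 UMIs, so the members were deep cells in both libraries. Genes that the rule did not use fit the erythroid part of the name. Gata1, the master erythroid transcription factor, had a UMI in 78.7% of null-labelled and 80.8% of control-labelled members, and Epor in 72.3% and 77.6%. The progenitor part fits only some of the cells. Kit had a UMI in 30.9% and 11.1% of members, whereas Alas2, the heme synthesis enzyme that is switched on as erythroblasts form, had a UMI in 55.3% and 69.3%.

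With 3 or 4 marker UMIs there were 5 null-labelled and 28 control-labelled members, and just outside, with 2 marker UMIs, 6 and 17 cells. With 15 to 20% hemoglobin there were 18 and 56 members, and just outside, with 20 to 25%, 13 and 67 cells. The limit on S100a8 and S100a9 removed 2 and 39 cells, and the limits on B and T cell genes removed 5 and 36. No member barcode occurred as a member in both libraries, and 11 barcodes were shared between the whole libraries.

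The transcripts that the results below turn on fall into an erythroid and an interferon-response group, and short stretches of their promoters are shown here as examples of the motif searched in each. Sequences are from RefSeq, build GRCm38.p6, read 5′ to 3′ along the strand of the gene, from windows of 250 bases before to 50 bases after each gene's start. Capitals mark 1 match to the motif in each stretch, the one nearest the gene's start, and any other match is left in lower case. For Gbp2, Ifit1, Isg15, Igtp and Rsad2 this is TTTCNNTTTC or its other strand GAAANNGAAA, the core of the element bound by interferon-activated transcription factors.
Gbp2: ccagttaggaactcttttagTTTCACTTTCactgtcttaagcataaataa
Ifit1: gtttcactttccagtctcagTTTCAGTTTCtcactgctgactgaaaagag
Isg15: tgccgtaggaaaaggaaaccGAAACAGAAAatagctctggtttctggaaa
Igtp: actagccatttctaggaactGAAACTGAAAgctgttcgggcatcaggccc
Rsad2: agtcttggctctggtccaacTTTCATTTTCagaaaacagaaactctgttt

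These stretches lie at chr3:142620584-142620633 on the plus strand, chr19:34640784-34640833 on the plus strand, chr4:156200855-156200904 on the minus strand, chr11:58199502-58199551 on the plus strand and chr12:26456543-26456592 on the minus strand. The marked bases start 59, 85, 66, 34 and 120 bases before the respective gene starts of that RefSeq table. Before those starts Ifit1 held 2 matches and Isg15 held 3, which overlap in part. For the erythroid genes Klf1, Ermap, Rhd and Alas2 the marked bases are GATAA or its other strand TTATC, the letters that GATA factors such as Gata1 recognise.
Klf1: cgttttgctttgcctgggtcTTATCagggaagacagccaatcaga
Ermap: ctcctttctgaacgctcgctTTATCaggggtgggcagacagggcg
Rhd: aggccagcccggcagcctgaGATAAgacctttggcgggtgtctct
Alas2: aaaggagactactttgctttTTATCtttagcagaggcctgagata

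These stretches lie at chr8:84901882-84901926 on the plus strand, chr4:119190038-119190082 on the minus strand, chr4:134864474-134864518 on the plus strand and chrX:150547311-150547355 on the plus strand. Among promoters of the same length, 1079 of 27025 genes (3.99%) held the interferon motif on either strand and 7682 (28.4%) held the GATA motif, which is short and common. Of the 42 interferon-response genes listed for this work, 30 had a promoter entry, and 22 of these (73.3%) held the interferon motif. In the list of 24 erythroid membrane and skeleton genes, 17 had an entry and none held it. The GATA motif did not set the groups apart: 12 of the 30 interferon-response genes (40%), 4 of 10 heme synthesis genes (40%) and 5 of the 17 membrane genes (29.4%) held it. A match is a description of these letters and does not show that a factor binds there.

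Hemoglobin ran from 0.0236% to 19.8% of UMIs in the null-labelled members, with a median of 3.62%, and from 0.0509% to 19.8% in the control-labelled members, with a median of 5.65%. Members were therefore described in 3 ranges of hemoglobin, which stand for rising maturity and were set by the measured hemoglobin, so that what follows along them is a description. The range under 1% held 37 null-labelled cells (39.4%, 29.4% to 50%) and 113 control-labelled cells (24.6%, 20.7% to 28.8%). From 1 to 5% there were 18 and 111 cells, and from 5 to 20% there were 39 and 235. The surplus of cells under 1% in the null-labelled library did not hold under a stricter limit on mitochondrial UMIs. The median mitochondrial share of those cells was 5.56% in the null-labelled and 4.94% in the control-labelled library. With a limit of 5% mitochondrial UMIs the difference between the libraries, 14.7 percentage points, became -1.69. In the null-labelled library that limit removed 24 of the 37 cells under 1% hemoglobin, but 1 of 18 and 1 of 39 in the higher ranges. In the control-labelled library it removed 51 of 113, 58 of 111 and 52 of 235. The limit thus fell unevenly on the ranges, and the part of cell quality in the surplus was not tested.

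Levels are given as CPM, the UMIs of a gene per 1000000 UMIs that are not hemoglobin, summed over the cells of a library, so that hemoglobin itself does not dilute the other genes. Kit, the stem cell factor receptor, was measured almost wholly in cells under 1% hemoglobin. Its level there was 171 CPM in the null-labelled and 45.0 in the control-labelled library, and it was 3.42 and 4.52 at 1 to 5% hemoglobin. At 5 to 20% hemoglobin the 235 control-labelled cells had Kit at 1.01 CPM, and the 39 null-labelled cells had no Kit UMI, where a count of 0 allows up to 4.37 CPM. Kit was thus lost within the low-hemoglobin cells of both libraries. Myb, a transcription factor of immature blood cells, ran in the same direction, from 264 to 13.7 and 1.46 CPM in the null-labelled and from 185 to 27.6 and 18.2 in the control-labelled library. Gata1 showed no such drop, at 111, 209 and 144 CPM in the null-labelled and 132, 164 and 198 in the control-labelled library.

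**Figure D1:**
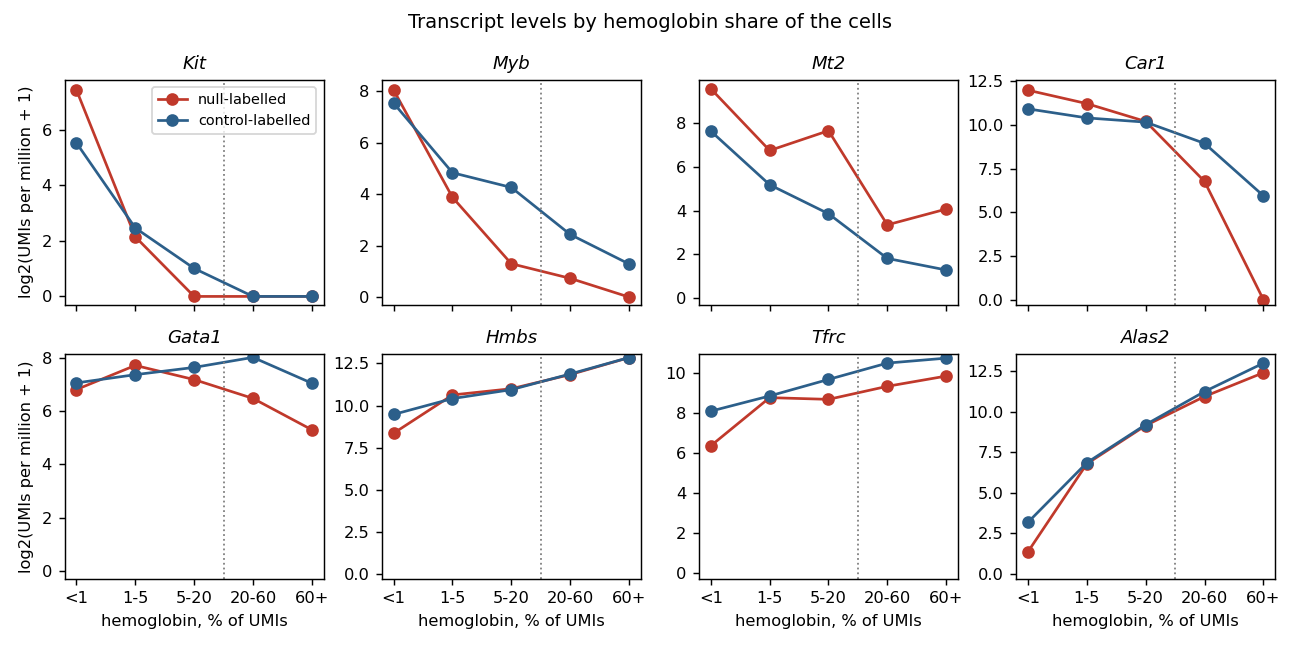
Levels of 8 genes, as log2(CPM + 1), in cells grouped by their hemoglobin share (percent of UMIs), with 1 line for each library and a dotted line at 20% hemoglobin, where membership ends. Kit, Myb, Mt2 and Car1 are highest under 1% hemoglobin in both libraries, and Tfrc and Alas2 climb with hemoglobin from 80.1 and 1.59 CPM under 1% hemoglobin in null-labelled cells to their highest levels at 60% or more.

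Genes of the mature red cell moved the other way along the same ranges. Alas2, the erythroid enzyme that starts heme synthesis, was at 1.59, 110 and 566 CPM in the null-labelled and 8.10, 115 and 589 in the control-labelled library. Tfrc, the transferrin receptor that brings iron into the cell, was already present under 1% hemoglobin, at 80.1 and 268 CPM. Of the 4 chosen markers, Car1 was highest in the cells with the least hemoglobin, at 4052, 2380 and 1172 CPM in the null-labelled and 1931, 1348 and 1140 in the control-labelled library, and Rhd was highest in those with the most, at 167, 589 and 705 and at 351, 668 and 1091. The rule used both genes, so these values describe the members and support nothing further.

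Cells under 1% hemoglobin were set against those with 5 to 20% within each library, counting genes at 2-fold or more in the same direction in both. Genes were counted if they reached 50 CPM in either group and 30 UMIs over both. Of 2752 genes, 303 (11.0%) were higher and 329 (12.0%) lower in the cells under 1%. Ribosome biogenesis stood out by its count, with 15 of 16 genes higher and none lower. Heme synthesis had 9 of 11 genes lower, terminal erythroid maturation 15 of 21, the membrane and skeleton list 11 of 21, and the G2 and M phase list 17 of 23. DNA replication genes had 7 of 23 lower and none higher. Cells under 1% hemoglobin thus carried more transcripts for making ribosomes, and those with 5 to 20% more transcripts for heme, membrane and mitosis.

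The members were next compared with the more mature cells that met every other part of the rule and had 20 to 60% hemoglobin, 244 in the null-labelled and 735 in the control-labelled library. Hemoglobin chose both groups, so this too is a description. Of 2728 genes, 450 (16.5%) were 2-fold or more higher in the low-hemoglobin cells in both libraries and 536 (19.6%) lower. C1qbp, a mitochondrial matrix protein, was 57.7-fold higher (27.8 to 144) in the null-labelled and 20.2-fold (15.6 to 26.5) in the control-labelled library. Hspe1, the mitochondrial co-chaperonin, was 17.4-fold (12.9 to 24.0) and 22.4-fold (18.7 to 27.2) higher. Ldha, the lactate dehydrogenase of glycolysis, was 60.1-fold (25.6 to 186) and 16.5-fold (12.8 to 21.7) higher. The spermidine synthase gene Srm, the nucleolar genes Lyar and Wdr12, the chaperonin Hspd1, the metallothioneins Mt1 and Mt2 and Ppp1r14b completed the 10 genes that the naming rule put highest.

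**Figure D2:**
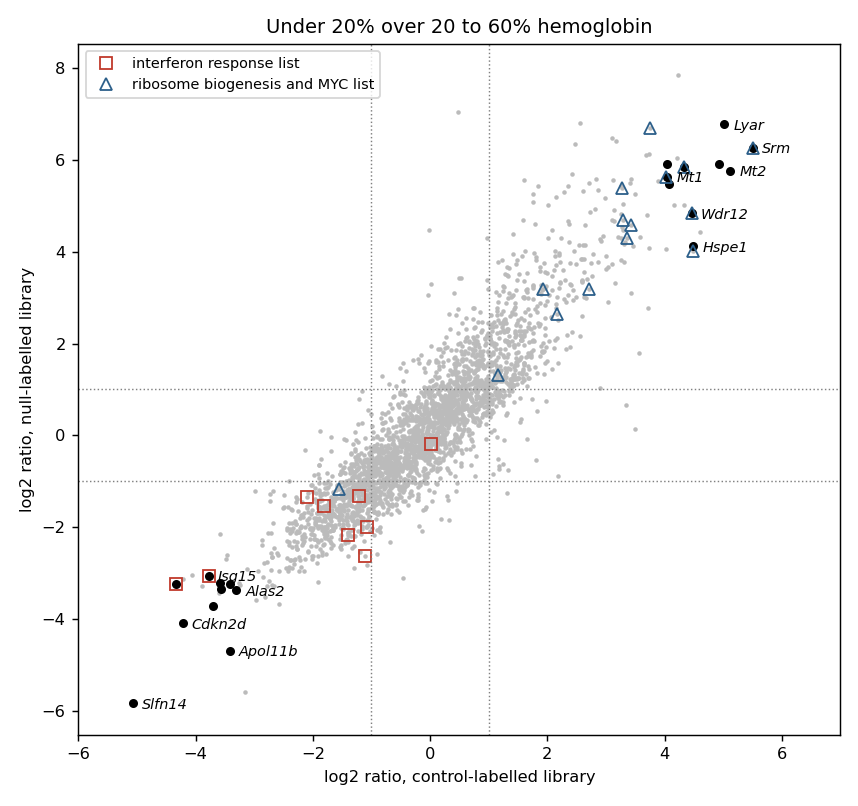
Each point is 1 gene, placed by the log2 ratio of its level in low-hemoglobin cells to that in cells with 20 to 60% hemoglobin, in the control-labelled library (horizontal axis) and in the null-labelled library (vertical axis). Triangles mark the ribosome biogenesis list, squares the interferon-response list and black points the named genes. Ribosome biogenesis genes lie at the upper right, 14 of 15 past 2-fold in both libraries, and Alas2 and Slfn14 lie at the lower left.

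On the lower side, Alas2 was 10.4-fold (9.36 to 11.5) higher in the cells with 20 to 60% hemoglobin in the null-labelled and 9.88-fold (9.40 to 10.4) in the control-labelled library. Cdkn2d, an inhibitor of the cyclin-dependent kinases that start the cell cycle, was 17.1-fold (14.6 to 20.3) and 18.6-fold (16.9 to 20.5) higher in those cells. Gch1, the first enzyme of tetrahydrobiopterin synthesis, was 9.33-fold (8.20 to 10.6) and 11.9-fold (10.9 to 13.1) higher. Slfn14, Fam46c, Apol11b, Ppp1r15a, Hist3h2ba and the interferon-response genes Rsad2 and Isg15 were the other genes named on this side. By list, 14 of 15 ribosome biogenesis genes, 9 of 11 heat shock genes, 6 of 8 glycolysis genes and 6 of 11 mitochondrially encoded genes were higher in the low-hemoglobin cells. Lower were 8 of 11 heme synthesis genes, 16 of 23 membrane genes, 23 of 25 terminal maturation genes and 15 of 24 G2 and M phase genes. DNA replication differed from mitosis, with 2 genes higher and 1 lower of 22. The erythroid transcription factors were split, with 4 higher and 4 lower of 16.

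The genotype comparison was made within the low-hemoglobin cells, null-labelled over control-labelled. Of 3255 genes counted by the same minimum, 270 (8.29%) were 2-fold or more higher in the null-labelled library and 407 (12.5%) lower. The median gene stood at -0.19 on the log2 scale. Measured relative to that median, 358 genes (11.0%) were higher and 260 (7.99%) lower, so the surplus of lower genes turned with the centring. The makeup of the members also differed, since cells under 1% hemoglobin gave 56.3% of the null-labelled and 37.3% of the control-labelled UMIs that were not hemoglobin. Ratios within 1 range of hemoglobin are therefore given where a gene depends on it. A range does not make hemoglobin equal. Its lower quartile was 0.0821% in null-labelled and 1.05% in control-labelled members. Most null-labelled cells under 1% thus lay far below that limit, while many control-labelled cells lay nearer to it. The part of this difference in the ratios under 1%, such as those for Kit, Alas2, Tfrc and Rrm2, was not tested.

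Of 16 erythroid transcription factors, 1 was higher, 2 were lower and 13 were within 2-fold, where 2578 of all 3255 genes were. Gata1 was at 134 CPM in the null-labelled and 164 in the control-labelled cells, and Epor at 96.5 and 130. Gata2, which precedes Gata1 in immature cells, was under the minimum for counting, at 17.0 against 8.35 CPM from 38 and 69 UMIs. Gfi1b, a repressor needed for red cell and platelet formation, was the higher gene, at 259 against 114 CPM (2.28-fold, 2.05 to 2.53). Tal1, a partner of Gata1, was at 75.9 against 194 CPM (2.55-fold lower, 2.18 to 3.01), and Bcl11a, the repressor of embryonic globin genes, at 62.1 against 161 (2.60-fold lower, 2.18 to 3.12). The lower level of Bcl11a was found in each range of hemoglobin, by 2.16-fold (1.79 to 2.62) under 1% and by 23.3-fold (7.90 to 114) at 5 to 20%.

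Of 6 counted erythropoietin receptor and signalling genes, 3 were 2-fold or more higher in the null-labelled library (8.29% of all genes were). These were Jak2, Pim1 and Kit, the last being the stem cell factor receptor. The other 3, Epor among them, were within 2-fold. Within the ranges of hemoglobin, 3 of 7 were higher under 1%, none of 4 at 1 to 5%, where 1 was lower, and 1 of 3 at 5 to 20%. In these ranges 8.72%, 10.6% and 10.0% of all genes counted were higher, and at 1 to 5% 14.6% were lower. Jak2, the kinase that carries the erythropoietin signal, was at 88.0 against 39.0 CPM (2.26-fold, 1.88 to 2.70). Pim1, a kinase induced by that signal, was at 114 against 51.9 (2.20-fold, 1.88 to 2.58). Both also stood higher within each range of hemoglobin, Jak2 by 1.97- to 2.88-fold and Pim1 by 1.86- to 4.18-fold. Kit was at 96.9 against 18.4 CPM (5.27-fold, 4.26 to 6.53), and its UMIs came mostly from the cells with the least hemoglobin. Within the cells under 1% hemoglobin, from which 99.5% and 91.4% of the Kit UMIs came, the ratio was 3.81 (3.06 to 4.74), and Kit had a UMI in 28 of 37 null-labelled and 47 of 113 control-labelled cells, at median depths of 31165 and 28877 UMIs. Myb, by contrast, was 1.43-fold (1.24 to 1.63) higher in those cells and stood lower in the null-labelled library at 5 to 20%.

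Among the counted red cell membrane genes, Epb42 and Smim1 differed most between the libraries. Epb42, protein 4.2 of the red cell skeleton, was at 10.3 CPM in the null-labelled and 117 in the control-labelled cells (11.4-fold lower, 7.58 to 18.1). Smim1, which carries the Vel blood group, was at 56.7 against 368 CPM (6.50-fold lower, 5.44 to 7.82). Both genes were lower in each range of hemoglobin, Epb42 by 8.10-fold (5.09 to 13.8) and Smim1 by 5.28-fold (4.04 to 7.03) at 5 to 20%. Of the 22 membrane and skeleton genes counted, 6 were lower, 2 were higher and 14 within 2-fold. Of all genes counted, 12.5% were lower and 8.29% higher. The median of the list was -0.31 on the log2 scale. Relative to the median gene 2 of the 22 were higher and 5 lower, where 11.0% and 7.99% of all genes were. Rhag, the Rh-associated glycoprotein, went the other way, at 729 against 277 CPM (2.64-fold, 2.47 to 2.81). Under 1% hemoglobin 5 of 17 counted genes of the list were lower and its median was -0.58, and at 5 to 20% 5 of 22 were lower and the median was 0.03. Over all genes counted, 15.4% were lower under 1% hemoglobin, 14.6% at 1 to 5% and 15.9% at 5 to 20%.

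**Figure D3:**
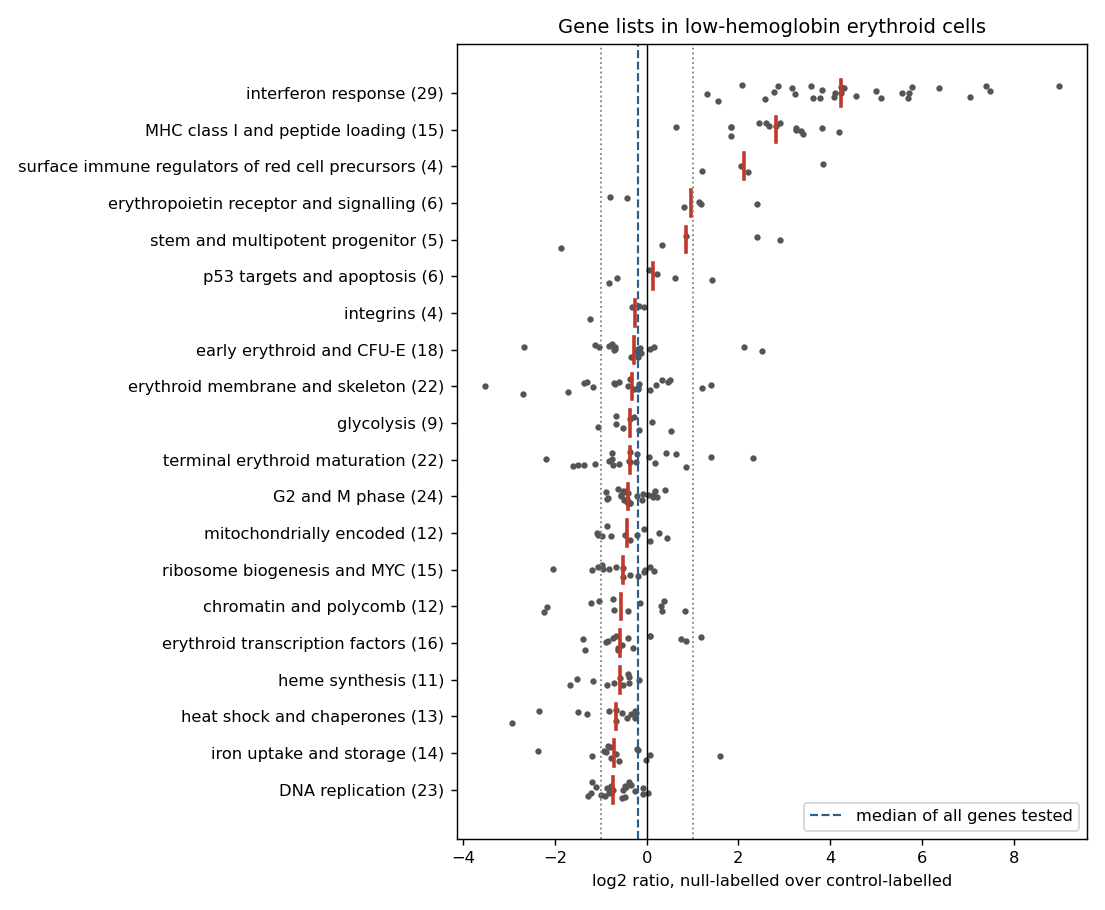
Log2 ratio of null-labelled over control-labelled level for each counted gene of each list in low-hemoglobin cells, with a bar at the list median, dotted lines at 2-fold and a dashed line at the median of all genes counted. The interferon-response and MHC class I lists lie to the right, and the medians of most erythroid lists lie between -1 and 0.

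In heme synthesis, 3 of 11 genes were lower in the null-labelled cells, where 12.5% of all genes were. None was higher, and the list median was -0.59. Relative to the median gene 2 of the 11 were lower, with a median of -0.40. Uros, uroporphyrinogen III synthase, was at 48.7 against 156 CPM (3.20-fold lower, 2.63 to 3.93), and Ppox, protoporphyrinogen oxidase, at 54.0 against 155 (2.87-fold lower, 2.38 to 3.48). Alas2 was at 189 against 245 and the porphyrin transporter Tmem14c at 1324 against 1994, both within 2-fold over all members. Under 1% hemoglobin Alas2 was at 1.59 against 8.10 CPM (5.10-fold lower, 1.27 to 44.5), and at 5 to 20% it was at 566 against 589. Among 14 iron genes, Steap3, the endosomal ferrireductase, was at 17.4 against 89.9 CPM (5.16-fold lower, 3.74 to 7.32). Tfrc was at 225 against 510 (2.27-fold lower, 2.07 to 2.50), and its ratio depended on the range, from 3.34-fold lower under 1% hemoglobin to 1.06-fold lower at 1 to 5%. Aco1, which in its iron-free form binds the transcripts of iron genes, was higher, at 64.7 against 21.4 CPM (3.02-fold, 2.41 to 3.79).

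DNA replication had 4 of 23 genes lower and none higher, where 12.5% of all genes were lower, with a list median of -0.74. Relative to the median gene 3 of the 23 were lower, where 7.99% of all genes were. Dut, which removes dUTP, was at 351 against 856 CPM (2.44-fold lower, 2.26 to 2.63), and Rrm2, the ribonucleotide reductase subunit, at 356 against 766 (2.15-fold lower, 2.00 to 2.32). For Rrm2 the difference was largest under 1% hemoglobin, at 48.4 against 367 CPM. The G2 and M phase list had none of 24 genes past 2-fold over all members. Under 1% hemoglobin 8 of its 22 counted genes were lower, where 15.4% of all genes were, with a median of -0.76. From 1 to 5% and from 5 to 20% none of 24 was lower. Heat shock genes had 4 of 13 lower, led by Hsph1 at 10.3 against 78.1 CPM (7.61-fold lower, 5.03 to 12.1), and ribosome biogenesis 3 of 15, led by Odc1, the ornithine decarboxylase of polyamine synthesis, at 154 against 637 (4.13-fold lower, 3.71 to 4.62). Relative to the median gene 1 of these 15 was lower. Within the 3 ranges of hemoglobin, from the lowest to the highest, ribosome biogenesis had 9 of 18, 9 of 15 and 5 of 11 genes lower and none higher. Heat shock genes had 6 of 13, 7 of 13 and 4 of 12 lower and none higher. In these ranges 15.4%, 14.6% and 15.9% of all genes counted were lower, and 8.72%, 10.6% and 10.0% higher. Among 12 chromatin genes 4 were lower over all members. Ezh2, the Polycomb methyltransferase, was at 64.7 against 303 CPM (4.68-fold lower, 3.96 to 5.58), and it was lower in each range of hemoglobin by 4.02- to 5.84-fold. Cdkn1b, the cell cycle inhibitor p27, was higher, at 98.2 against 36.8 (2.67-fold, 2.24 to 3.19).

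Among 12 mitochondrially encoded genes, 2 were lower over all null-labelled members, mt-Nd2 and mt-Nd4l, both subunits of respiratory complex I. Of all genes counted 12.5% were lower, and relative to the median gene 0 of these 12 were. The ratios depended on the hemoglobin of the cells. Under 1% hemoglobin none of 12 was past 2-fold, at 1 to 5% 8 of 12 were lower (median -1.81), and at 5 to 20% 7 of 11 were lower (median -2.08). Of all genes counted, 15.4%, 14.6% and 15.9% were lower in these ranges. The gene mt-Nd2 was at 1814 against 2622 CPM under 1% hemoglobin (1.45-fold lower, 1.38 to 1.51) and at 198 against 1874 at 5 to 20% (9.46-fold lower, 7.98 to 11.3). In the latter range mt-Atp6, a subunit of the ATP synthase, was within 2-fold, at 8360 against 10180 CPM. The median mitochondrial share of the cells at 5 to 20% hemoglobin was 2.56% and 4.13%, and its part in these ratios was not tested.

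Counts per cell were compared after thinning each cell to 2000 UMIs, which left out 10 null-labelled and 28 control-labelled members. At that depth 76 of 84 null-labelled cells (90.5%, 82.1% to 95.8%) and 424 of 431 control-labelled cells (98.4%, 96.7% to 99.3%) had 3 or more UMIs of the DNA replication list, with medians of 11 and 17. Unthinned, the shares were 95.7% and 99.6%. B and T cells thinned alike had shares of 21.3% and 25.6%, at median depths of 5914.5 and 2404.5 UMIs. For heme synthesis the shares were 83.3% and 94.2% of members against 1.82% and 4.06% of B and T cells, cell types that should lack these enzymes at such levels. The difference between the libraries in early erythroid cells with DNA replication UMIs was -7.90 percentage points, and it was -19.7 when only cells under 1% hemoglobin were compared, and -1.75 at 5 to 20%. At 5 to 20% the null-labelled cell below 3 UMIs was the 1 led by basophil markers, described below, which had 0. Under 1% hemoglobin the null-labelled cells below 3 held from 3 to 125 UMIs of the 4 chosen markers, so some are doubtful members. Their part in these differences was not tested.

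Of the lists compared, interferon response had the highest median ratio. All 29 counted genes of the list were higher in the null-labelled cells, where 8.29% of all genes were, with a median of 4.24 on the log2 scale. The gene names were known from earlier results of these data. The minimum of 50 CPM in either library let genes such as Gbp2, Ifit1 and Irf1 pass through the null-labelled library alone. The count and the median are thus partly set by that minimum. Over all 42 genes of the list, counted or not, the summed level was 9647 against 806 CPM. Gbp2, an interferon-induced guanylate-binding GTPase, was at 306 CPM in the null-labelled and 0.605 in the control-labelled cells, a ratio of 506 (216 to 1565). It had a UMI in 69 of 94 and 4 of 459 cells. Ifit1, which binds foreign RNA, was at 160 against 1.21 CPM, and Igtp, an immunity-related GTPase, at 332 against 6.41. Isg15 was at 1154 against 61.1 CPM (18.9-fold, 17.2 to 20.8) and Rsad2, the antiviral enzyme viperin, at 537 against 31.1 (17.3-fold, 15.1 to 19.8). The transcription factors of the response were higher as well, Irf7 at 418 against 21.3 and Irf1 at 82.6 against 1.57 CPM. Iigp1, Zbp1, Oasl2, Tmem140, Ifi44, Cxcl10 and Rtp4 were the other interferon-related genes among the 14 named highest, with ratios between 32.1 and 180. Of all genes 2-fold or more higher in the null-labelled cells, 221 had a promoter entry and 36 (16.3%) held the interferon motif shown above, against 116 of 2635 (4.4%) of all genes counted and 7 of 327 (2.14%) of those lower. The higher genes include the 29 of the list, and no count was made without them, so this share is not separate from the list.

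The response was present in the null-labelled cells with the least hemoglobin. The summed level of the list was 8803 CPM under 1% hemoglobin, 7311 at 1 to 5% and 12188 at 5 to 20%, and it was 700, 760 and 951 in the control-labelled cells. Within the 3 low ranges, 31 of 31 counted genes of the list were 2-fold or more higher in the null-labelled cells under 1% hemoglobin, where 8.72% of all genes counted were, 21 of 22 at 1 to 5% (10.6% of all genes) and 25 of 25 at 5 to 20% (10.0%). The same minimum applied within each range, so these counts share that limit, whereas the summed level takes in every gene of the list. In the more mature cells the summed level was 37988 against 2795 at 20 to 60% and 79652 against 7051 above. Within each library the summed level was thus several-fold higher in the mature cells. Much of it came from 2 genes. Of the 7051 CPM in control-labelled cells with 60% hemoglobin or more, Rsad2 gave 3493 and Isg15 2343. In the null-labelled library they gave 11705 and 30912 of 79652. The genes of the list did not share 1 course. In the null-labelled library Isg15, the ubiquitin-like modifier, was at 646, 907 and 2190 CPM over the 3 low ranges and at 9649 at 20 to 60%, whereas Gbp2 was highest under 1% hemoglobin, at 448, against 113, 128 and 347.

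**Figure D4:**
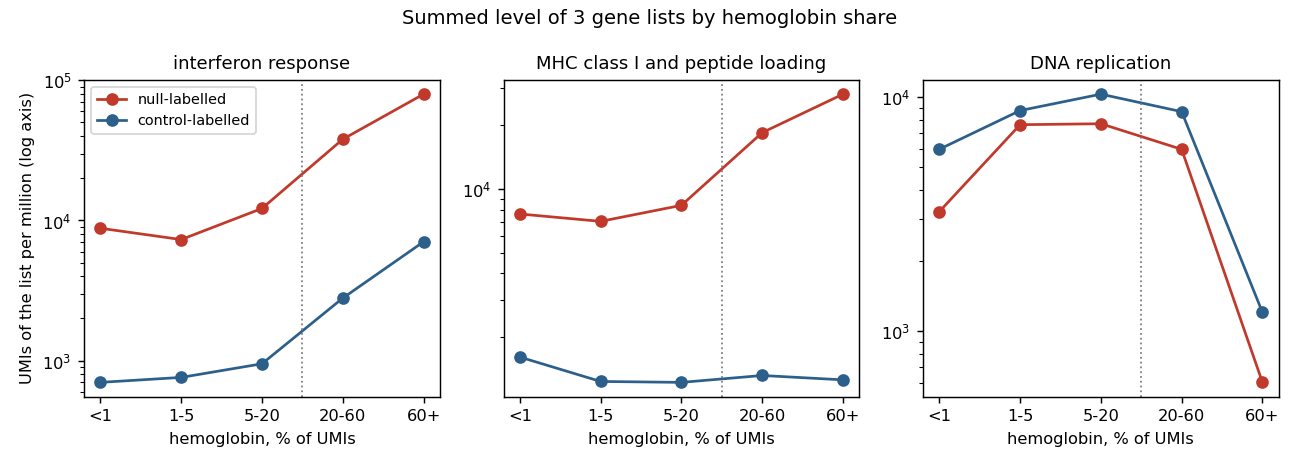
Summed level of the interferon-response, MHC class I and DNA replication lists (CPM, log axis) in cells grouped by hemoglobin share (percent of UMIs), with 1 line for each library and a dotted line at 20% hemoglobin. The interferon-response list climbs from 8803 to 79652 CPM in the null-labelled and from 700 to 7051 in the control-labelled library.

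In single cells thinned to 2000 UMIs, interferon-response transcripts reached 3 or more UMIs in 84 of 84 null-labelled cells (100%, 95.7% to 100%) and in 90 of 431 control-labelled cells (20.9%, 17.1% to 25%). The medians were 17 and 1 UMIs. The lowest null-labelled cell had 4 and the highest control-labelled cell 33, so the libraries overlapped only through the upper cells of the control-labelled library. Without thinning, the shares were 98.9% and 86.7%.

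**Figure D5:**
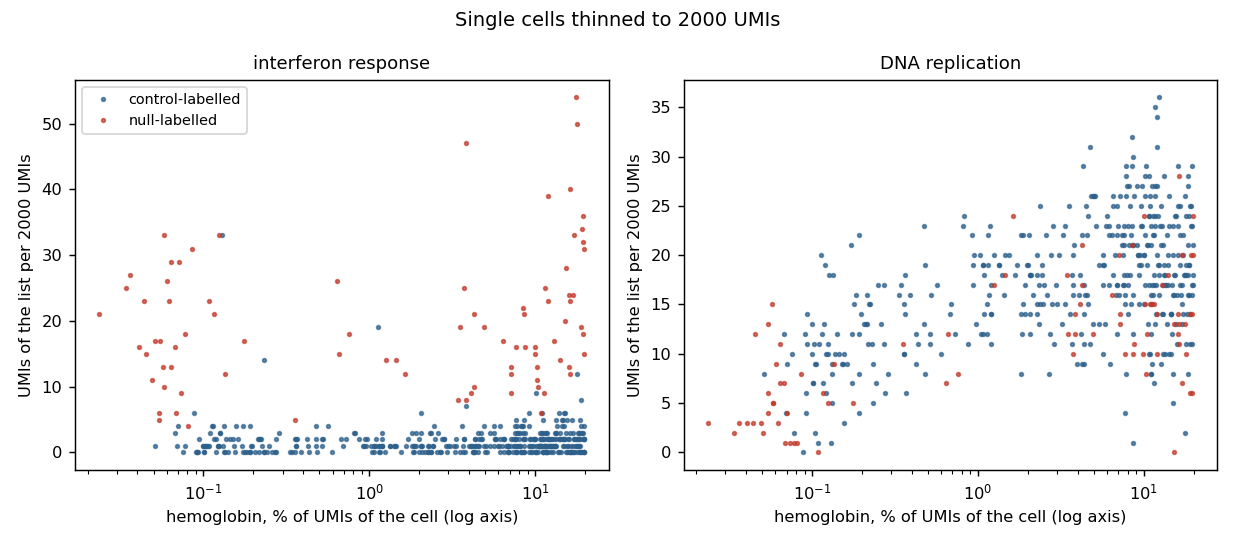
UMIs of the interferon-response and the DNA replication list per 2000 UMIs of a cell (vertical axes) against the cell's hemoglobin share (percent of UMIs, log axis), each point 1 low-hemoglobin cell. The null-labelled cells lie above most control-labelled cells for interferon response, with medians of 17 and 1, and lie lower for DNA replication, with medians of 11 and 17.

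Genes that present peptides on MHC class I stood higher as well, with 14 of 15 counted genes higher and a median of 2.82. Of all genes counted, 8.29% were higher. The minimum of 50 CPM in either library let some of these genes, such as Tap1, pass through the null-labelled library alone. B2m, the light chain of MHC class I, was at 2392 against 396 CPM (6.05-fold, 5.79 to 6.32), the heavy chain H2-D1 at 1365 against 251 (5.43-fold, 5.13 to 5.74) and the peptide transporter Tap1 at 388 against 21.3 (18.2-fold, 15.5 to 21.5). Psme2, a proteasome activator subunit, was the 1 gene within 2-fold. This list's summed level was 7625, 7037 and 8376 CPM over the 3 low ranges in the null-labelled library and 18445 at 20 to 60% hemoglobin. In the control-labelled library it stayed between 1225 and 1612 over the low ranges and was 1320 at 20 to 60%.

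The 4 counted genes of the list of surface immune regulators, which holds 16, were higher in the null-labelled cells, where 8.29% of all genes were. Cd47, the signal that keeps macrophages from engulfing red cells, was at 1745 against 754 CPM (2.31-fold, 2.22 to 2.41), and Lgals9, galectin 9, at 1199 against 84.0 (14.3-fold, 13.1 to 15.6). Both were higher in each range of hemoglobin. Cd274, the immune checkpoint ligand PD-L1, was under the minimum for counting, with 50 UMIs in 29 null-labelled cells and 1 UMI in the control-labelled cells (ratio 185, 31.6 to 7434). Ifngr1, a chain of the interferon-γ receptor, was at 195 against 42.3 CPM, but 99.5% of its null-labelled UMIs came from cells under 1% hemoglobin. At 5 to 20% it was at 2.91 against 13.2 CPM, the opposite direction.

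Metallothioneins, which bind zinc and mark early erythroid progenitors, were also higher. Mt2 was at 500 against 87.7 CPM (5.70-fold, 5.18 to 6.26) and Mt1 at 949 against 219. Under 1% hemoglobin the ratio for Mt2 was 3.84 (3.46 to 4.26), and at 5 to 20% it was 14.8 (10.3 to 21.6). Ube2l6, the enzyme that conjugates Isg15 and also acts in terminal erythroid maturation, was at 541 against 109 (4.95-fold, 4.54 to 5.40). Mns1, a gene of the list of early erythroid genes, was at 66.1 against 424 (6.41-fold lower, 5.44 to 7.61), and Trim10, an erythroid ubiquitin ligase, at 33.9 against 155 (4.58-fold lower, 3.63 to 5.85).

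Itgb3, the gene that separates the labels, had 1 UMI in the null-labelled and 9 UMIs in the control-labelled members, or 0.447 and 1.09 CPM with a ratio interval that spans 1, so these cells do not check the label. Apoe, absent by label from both, had 95 and 683 UMIs, and the counts carry no position within the gene, so they do not check that label either. Of the other integrin genes, Itga4, the α4 chain that holds erythroblasts to macrophages, was at 208 against 218 CPM, and Tln1, talin, at 92.4 against 217 (2.35-fold lower, 2.03 to 2.72).

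Markers of other cell types were not equal between the libraries, and those of neutrophils were the most widespread. Neutrophil markers had no UMI in only 32 null-labelled and 58 control-labelled members, and 3 or more UMIs in 27 and 209. The median member had 1 and 2 of these UMIs, and their summed levels were 68.3 and 170 CPM. Markers of stem and multipotent progenitors had 3 or more UMIs in 23 and 55 members. In 1 null-labelled and 19 control-labelled members the UMIs of another type's markers outnumbered those of the 4 erythroid markers. The null-labelled one held 417 of the library's 420 basophil marker UMIs, and Prss34 and Mcpt8, both basophil proteases among the genes named highest, were detected in that 1 null-labelled cell. The 19 control-labelled cells were led by granulocyte-monocyte progenitor (5), monocyte (5), macrophage (3), neutrophil (2), stroma (2), B cell (1) and T or NK cell (1) markers. Summed markers of granulocyte-monocyte progenitors were at 33.5 CPM in the null-labelled and 237 in the control-labelled members, those of monocytes at 2.23 and 106, and those of macrophages at 2.68 and 62.8. Csf1r, Ccr2, Adgre1 and C1qc had no UMI in the null-labelled members, where a count of 0 allows up to 1.34 CPM.

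The genes named lowest moved with these markers in part. Lyz2, a lysozyme of macrophages and neutrophils, had 5 null-labelled and 1555 control-labelled UMIs, Prtn3 had 2 and 741, and Elane 2 and 532, the last pair being proteases of granulocyte progenitors. Lyz2 was spread over 44.7% of the control-labelled members, Prtn3 over 8.71% and Elane over 7.41%. S100a6 and Tyrobp, genes of myeloid cells, were also among the 14 named lowest. Without the 1 and 19 cells led by other markers, a comparison added after the data were seen, the log2 ratio was -4.23 for Lyz2, -3.33 for Prtn3 and -1.69 for Elane, and 269 genes were then higher and 406 lower. The part of such cells and of free RNA in the remaining difference was not tested. Sh2d4a, Col5a1, Them6, Sec14l2 and Ift140, which are in none of the marker lists, were 7.39- to 12.4-fold lower.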

How the data were processed

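Bone marrow cells were measured in 2 droplet-based single-cell libraries, 1 per genotype. The deposited matrices hold whole-number UMI counts per gene and barcode, not normalized; per the submitters' processing notes Cell Ranger 3.0, Seurat and build mm10 were used, and per the file headers the software version was 3.1.0. The features numbered 31053, and promoter coordinates are those of the RefSeq table, build GRCm38.p6. The libraries held 4281 and 12764 barcodes with 44694854 and 79192158 UMIs, of which 2974 and 9285 were kept.

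Counts were summed over the chosen cells per library and divided by their UMIs that were not hemoglobin. Ratios carry exact intervals from the split of the UMIs, sums exact Poisson and shares Clopper-Pearson intervals at 95%, all for counting error only. Genes were counted at 2-fold with at least 50 CPM in either group and 30 UMIs over both. The genes of the rule were left out. Where a library had 0 UMIs, 3 UMIs are the limit. Doublets were kept, as the rule has no filter for them; the highest Scrublet scores (scanpy 1.11.5) fell on 2 null-labelled and 23 control-labelled members.

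Named genes were the 14 highest and 14 lowest by the interval bound nearest to 1. Between stages they were the 10 highest and 10 lowest. Both choices left out predicted, mitochondrial, immunoglobulin and T cell receptor genes, Xist and Y-linked genes. The 2 highest by level and by ratio in each of 25 lists were named too, as was a fixed set of erythroid and design genes. Other genes given, such as Gfi1b, Rhag and Irf7, were chosen after their values were seen. A few genes that this rule names are left out of the text. The members, gene lists and named genes were chosen with earlier results of these data known. Python 3.11.15, numpy 2.4.6, pandas 2.3.3, scipy 1.17.1 and, for TMM scaling, edgeR 4.0.16 were used, and the scripts were tested on simulated data. Alternatives varied the cell limits, marker minimum, depth, doublets, scaling, free RNA and gene minimums.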

Additional observations from a re-analysis of the deposited data

Results flagged for a closer look

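Between the low-hemoglobin cells and the cells with 20 to 60% hemoglobin, 2 lists had medians of opposite sign in the libraries. The MHC class I list had a median log2 ratio, low-hemoglobin over more mature, of -1.04 in the null-labelled and 0.19 in the control-labelled library. The integrin list had a median of 1.02 in the null-labelled and -0.16 in the control-labelled library, over few genes. With 1 library per genotype neither difference could be tested, and hemoglobin chose both groups of cells.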

How the results depend on the processing

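The log2 ratio of the share of early erythroid cells with low hemoglobin, -0.65, was -1.05 with the rule applied to cells thinned to 2000 UMIs and -1.86 among cells with 5000 to 20000 UMIs. The difference in the share under 1% hemoglobin, 14.7 points, reversed to -1.69 with at most 5% mitochondrial UMIs. The difference between the libraries in early erythroid cells with DNA replication UMIs, -7.90 points, was -23.7 among cells with 5000 to 20000 UMIs, -20.7 when thinned to 1000 UMIs, -19.7 under 1% hemoglobin and -1.75 at 5 to 20%. That for interferon response, 79.1 points, was 84.9 when thinned to 1000 UMIs and 93.5 with 5 or more UMIs required. The interferon median, 4.24, was 3.91 among cells with 5000 to 20000 UMIs and 4.43 relative to the median gene. The counts of 270 higher and 407 lower genes were 134 and 218 with at least 100 CPM and 100 UMIs, 1124 and 1832 with at least 10 UMIs and no CPM limit, and 260 were lower relative to the median gene. The 450 genes 2-fold higher than in erythroblasts with 20 to 60% hemoglobin in both libraries and the 536 lower became 218 and 277 among cells with 5000 to 20000 UMIs and 853 and 167 per 1000000 of all UMIs, and the higher count was 241 and 2319 with those 2 gene minimums. Fewer or more genes were counted under the gene minimums; for the other settings the cause was not tested. Ifngr1 reversed to -2.17 in cells with 5 to 20% hemoglobin. Signs also changed for the median of the membrane list (5 to 20% hemoglobin), of the G2 and M phase list (5 to 20% hemoglobin, or at most 5% mitochondrial UMIs) and of the mitochondrially encoded list (under 1% hemoglobin), and for Myb under 3 settings. No paired analysis was possible because each genotype had 1 library. The settings relative to the median gene, within a hemoglobin range and without cells led by other markers were added after the data were seen. The null-labelled members number 94, which limits the precision of their shares.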

Other observations

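Gab1, the adaptor that relays signals from Kit and the erythropoietin receptor, was under the minimum for counting and was singled out after its values were seen. It had 1 UMI in the null-labelled members and 197 UMIs in 137 of the 459 control-labelled members, 0.447 against 23.8 CPM (53.4-fold lower, 9.47 to 2118). In the control-labelled library its UMIs were spread over the ranges of hemoglobin, with 72 under 1%, 50 at 1 to 5% and 75 at 5 to 20%.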
